A study of Mus musculus with 9 samples.

Results

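Sparc, Postn, Tnc, Fn1, Thbs1, Thbs2, Cthrc1, Nrep, Acta2 and Tagln are 10 genes of matrix repair and of the myofibroblast, and all 10 were found among the 54532 genes of the count table. They were selected by name as a functional group, with their difference between old rMETRNL and old PBS muscle already known. Fits and calls for that difference are therefore a description and no evidence of it. The 9 libraries came from injured tibialis anterior muscle of C57/BL6J mice, 3 per group. Young PBS mice (4 months old) and old PBS mice (24 months old) received barium chloride, which kills muscle fibres, followed by 3 intramuscular injections of PBS. Old rMETRNL mice (24 months old) received the same injury and 3 injections of rMETRNL, the recombinant form of METRNL, a secreted protein. All groups were therefore injured, and no uninjured muscle was sequenced among these libraries. The sources differ on the material. The study's text describes extracts of intact muscle taken 8 days after damage, whereas the sample labels describe dissociated cells and the series text gives day 4. Old PBS libraries carry the numbers 2, 3 and 4.

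After injury, fibroblasts of muscle lay down a provisional matrix, and some become myofibroblasts, cells that secrete matrix and carry stress fibres of smooth muscle actin. Matricellular proteins are secreted into that matrix but serve mainly as signals rather than as scaffold: they bind collagen, integrins and growth factors and change how cells attach and migrate. Their genes are low in resting adult tissue and are switched on in wounds, in developing tissue and in fibrosis.

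Promoters are shown because the group holds both matrix genes and a contractile gene, and their start regions can be read side by side. RefSeq (GRCm38.p6) gave 7 windows of 300 bases for 5 of the 10 genes (Postn, Tnc, Sparc, Thbs2 and Acta2). Both strands were searched for the CArG box, the site of serum response factor, for the TEAD motif GGAATG, and for a TATA-like motif, TATATAA, which was added after the sequences had been read. The TATA-like motif was in 3 windows, those of Postn, Tnc and Acta2, and 3.24% of 32851 mouse promoter windows of the same length hold it. Because it was added with these sequences in view, its presence is no evidence that these genes hold it more often. The TEAD motif was in the Acta2 window, and 14.7% of all windows hold it. None of the 7 windows held an exact CArG box, which 1.63% of all windows hold. The search took exact matches only, so near matches, such as ccctatatgg and ccttgtttgg in the Acta2 window, were not counted. The 250 bases before the start of 3 of these windows are given 5′ to 3′ on the gene's strand, with the matched letters in capitals. They lie at chr3:54360857-54361106 (Postn, plus strand), chr4:64046937-64047186 (Tnc, minus strand) and chr19:34255374-34255623 (Acta2, minus strand).
Postn: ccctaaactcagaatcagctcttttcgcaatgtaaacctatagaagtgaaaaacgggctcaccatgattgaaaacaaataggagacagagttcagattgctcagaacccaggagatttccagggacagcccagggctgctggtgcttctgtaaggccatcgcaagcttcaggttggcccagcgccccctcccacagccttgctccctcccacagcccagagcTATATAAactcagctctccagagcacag
Tnc: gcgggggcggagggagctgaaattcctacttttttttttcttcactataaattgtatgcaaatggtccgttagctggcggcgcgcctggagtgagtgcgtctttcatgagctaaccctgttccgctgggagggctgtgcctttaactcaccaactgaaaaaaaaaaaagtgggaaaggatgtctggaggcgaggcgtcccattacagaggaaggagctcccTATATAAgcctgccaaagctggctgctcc
Acta2: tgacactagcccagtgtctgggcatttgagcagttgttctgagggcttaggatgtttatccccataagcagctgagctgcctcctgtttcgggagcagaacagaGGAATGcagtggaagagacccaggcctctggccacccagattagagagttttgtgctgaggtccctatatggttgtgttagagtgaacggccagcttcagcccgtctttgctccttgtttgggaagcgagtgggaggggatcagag
The capitals mark TATATAA at base 223 of the Postn window and base 222 of the Tnc window, and GGAATG at base 105 of the Acta2 window. The TATA-like motif of Acta2 begins at base 259, after the annotated start and beyond the printed stretch. A letter match describes the sequence only, and does not show that a factor binds there.

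The genes lie on 10 different chromosomes. In the GRCm38 annotation, Sparc covers chr11:55394500-55423183 on the minus strand and Postn chr3:54361109-54391037 on the plus strand. Tnc covers chr4:63959785-64047015, Fn1 chr1:71585520-71653200 and Thbs2 chr17:14665500-14694235, all on the minus strand, while Thbs1 covers chr2:118111876-118127133 and Cthrc1 chr15:39076932-39087121 on the plus strand. Nrep (chr18:33437019-33464029), Acta2 (chr19:34241090-34255590) and Tagln (chr9:45929619-45936058) are on the minus strand. Reads were counted over whole genes, so exon and UTR cannot be told apart. Tagln shares 67.9% of its exon bases with genes of the opposite strand, 1241 bases with the antisense gene Gm48529 and 108 with Pcsk7. The strand setting of the counting is not given in the sources used here, so its counts cannot be assigned to Tagln with certainty. For Tnc, Fn1 and Thbs1 the shared exon bases came to 2.26%, 2.50% and 3.42%, and the other 6 genes shared none.

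The libraries held 16238700 to 22522560 counts, and 3 counts, taken as the floor of detection, corresponded to 0.131 to 0.202 CPM (counts scaled to a common library size with edgeR's TMM factors). The 10 genes together took 0.126% to 0.628% of a library's counts, with the extremes in old PBS 4 and young PBS 3. The old PBS libraries stood apart from the other 6 in RNA of other tissues. The summed level of 10 brain markers, without the highest of them, was 47.0 to 117 CPM in old PBS and 0.814 to 2.20 CPM in the other libraries, and 9 liver markers summed to 30.1 to 103 CPM against 1.80 to 13.5 CPM. By edgeR's adjusted p-value 3 brain markers and 1 liver marker passed in old PBS against young PBS, all higher. Old PBS libraries also differed among themselves. The summed level of 10 muscle markers was 89223 CPM in old PBS 2, 58040 CPM in old PBS 3 and 86976 CPM in old PBS 4, and 72414 to 83688 CPM elsewhere. The part of these differences in the results was not tested. Because RNA was taken from mixed tissue, fewer cells of a type and less RNA per cell cannot be told apart.

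Per length of exon, the 10 genes spanned a wide range. Sparc was the most abundant, with a mean of 431 CPM per kb over the 9 libraries, and ranked 73 among 16118 genes. Postn (108 CPM per kb), Fn1 (68.8), Nrep (60.0) and Acta2 (35.5) followed. Cthrc1 had 18.9 CPM per kb, Thbs2 15.0, Thbs1 6.72 and Tnc 4.88, and Tagln came last with 0.262. The value of Tagln is scaled to its full exon length, of which 67.9% is shared with other genes, so its place is uncertain. The lowest library of Sparc, at 196 CPM per kb, was above the highest of Postn, at 185 CPM per kb. The highest library of Tagln, at 0.539 CPM per kb, was below the lowest of Tnc, at 0.963 CPM per kb. Every other pair of neighbours in this order overlapped between libraries.

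**Figure D1:**
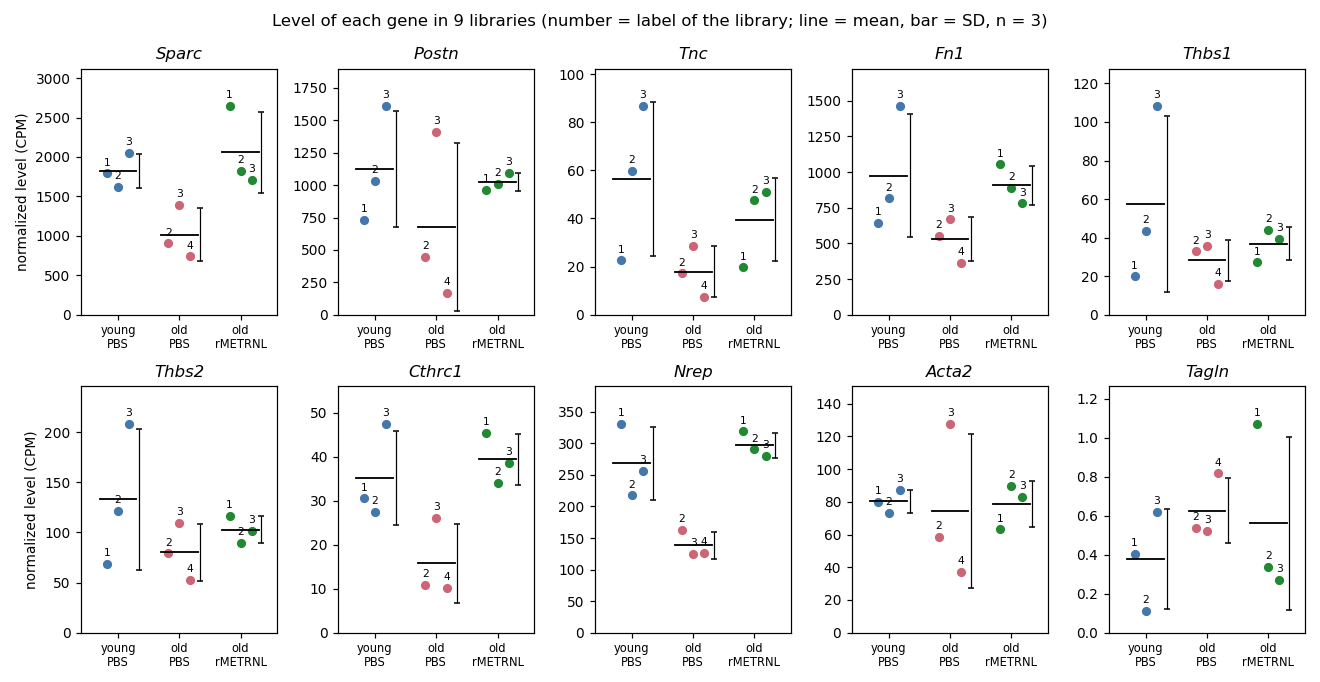
Normalized level (CPM, linear axis from 0) of each of the 10 genes in the 9 libraries. Points are libraries with the number of their label, lines are group means and bars are SD (n = 3). In Sparc, Cthrc1 and Nrep every old PBS point lies below every other point, in Acta2 the old PBS points span all others, and in Postn old PBS 3 is the second highest point and old PBS 4 the lowest.

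Among the matricellular genes, Sparc, which encodes a collagen-binding glycoprotein also called osteonectin, was lower in old PBS muscle in every library. Sparc levels were 1792, 1623 and 2056 CPM in young PBS 1, 2 and 3, 908, 1392 and 743 CPM in old PBS 2, 3 and 4, and 2644, 1824 and 1708 CPM in old rMETRNL 1, 2 and 3. The old PBS libraries did not overlap with either other group. The old PBS mean was 1014 ± 337 CPM (SD, n = 3), against 1823 ± 219 in young PBS, a log2 difference of -0.85 (SE 0.29), which did not pass edgeR's test over all genes (adjusted p = 0.674). Without old PBS 3 the difference was -1.15 and passed (edgeR, adjusted p = 0.0385), in a fit that called 401 genes in all. With any other library left out Sparc did not pass. Without old PBS 4 the difference was -0.67 (edgeR, adjusted p = 0.899). Between old rMETRNL and young PBS the log2 difference was 0.17 (95% interval -0.23 to 0.58, edgeR adjusted p = 0.9996).

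Cthrc1, a secreted collagen triple helix repeat protein that marks activated fibroblasts, followed the order of Sparc at a level far below it. The young PBS libraries had 30.6, 27.5 and 47.5 CPM, the old PBS libraries 10.9, 26.2 and 10.2 CPM, and the old rMETRNL libraries 45.5, 34.1 and 38.7 CPM. All old PBS values lay below all others, although old PBS 3 was within 2 CPM of young PBS 2. The difference of old PBS from young PBS was -1.15 (log2, SE 0.38; edgeR, adjusted p = 0.629). It was -1.74 without old PBS 3 (edgeR, adjusted p = 0.0201) and -0.91 without old PBS 4 (edgeR, adjusted p = 0.873). With any library other than old PBS 3 left out Cthrc1 did not pass. Old rMETRNL and young PBS differed by 0.16 (log2, 95% interval -0.25 to 0.58).

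Postn encodes periostin, which binds integrins and helps collagen to crosslink, and its old PBS libraries were the most unequal of any of the 10 genes relative to their mean. Postn was at 731, 1034 and 1609.85 CPM in young PBS, at 446, 1409.8 and 172 CPM in old PBS, and at 963, 1012 and 1096 CPM in old rMETRNL. Old PBS 4 was the lowest library and old PBS 3 the second highest, so the groups overlapped. The old PBS mean was 676 ± 650.2 CPM, and that of old rMETRNL 1024 ± 66.9. Against young PBS, old PBS differed by -0.74 (log2, SE 0.66; edgeR, adjusted p = 0.994), by -1.87 without old PBS 3 (edgeR, adjusted p = 0.0789), by -0.28 without old PBS 4 and by -0.39 without young PBS 3. The interval between old rMETRNL and young PBS ran from -0.65 to 0.38 around -0.14.

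Tnc encodes tenascin-C, a glycoprotein of wounds and tendon, and it had the widest range of the 9 genes that could be tested throughout, with the highest library 11.6 times the lowest. Tnc levels were 22.6, 59.8 and 86.7 CPM in young PBS, 17.3, 28.7 and 7.48 CPM in old PBS, and 19.7, 47.6 and 51.2 CPM in old rMETRNL. The first library of young PBS and the first of old rMETRNL lay inside the old PBS range. The log2 difference of old PBS from young PBS, -1.66 (SE 0.55), was the largest of the 10 genes and did not pass (edgeR, adjusted p = 0.635). Old rMETRNL stood at -0.51 from young PBS, with an interval of -1.42 to 0.40 that includes 0. It stood at -0.06 without young PBS 3 and at -0.90 without young PBS 1.

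Thbs1 and Thbs2 encode thrombospondins, secreted proteins that hinder vessel growth, and thrombospondin-1 can release TGF-beta from its latent form. Thbs1 was at 20.0, 43.7 and 108 CPM in young PBS, at 32.8, 35.9 and 16.2 CPM in old PBS, and at 27.1, 43.9 and 39.5 CPM in old rMETRNL. Thbs2 was at 69.0, 122 and 208 CPM in young PBS, at 79.3, 109 and 52.7 CPM in old PBS, and at 117, 89.8 and 101 CPM in old rMETRNL. In both genes young PBS 3 was the highest library and the groups overlapped. Old PBS differed from young PBS by -1.02 for Thbs1 (SE 0.55; edgeR, adjusted p = 0.959) and -0.73 for Thbs2 (SE 0.41; edgeR, adjusted p = 0.969) on the log2 scale. Without young PBS 3 these became -0.17 and -0.25. Between old rMETRNL and young PBS the differences were -0.64 (interval -1.60 to 0.33) and -0.37 (interval -1.02 to 0.27), and without young PBS 3 both turned to the other sign, 0.21 and 0.11.

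Fn1 encodes fibronectin, the adhesive glycoprotein on which the provisional matrix is assembled. Fn1 was at 647, 817 and 1462 CPM in young PBS, at 553, 668 and 363 CPM in old PBS, and at 1054, 888 and 780 CPM in old rMETRNL. All old PBS libraries lay below all old rMETRNL libraries, but old PBS 3 was above young PBS 1. The old PBS difference from young PBS was -0.89 (log2, SE 0.36; edgeR, adjusted p = 0.788), and without young PBS 3 it was -0.47. For old rMETRNL the difference from young PBS was -0.10 (interval -0.67 to 0.46).

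Nrep encodes P311, a small intracellular protein known from wound myofibroblasts and regenerating nerve, and it gave the most even values of the group. Nrep was at 331, 218 and 257 CPM in young PBS, at 163, 125 and 127 CPM in old PBS, and at 319, 291 and 280.5 CPM in old rMETRNL. Each old PBS library was below every other library, and the highest library was 2.64 times the lowest, the narrowest range of the 10 genes. Old PBS muscle had 138 ± 21.7 CPM and young PBS muscle 268 ± 57.4 CPM, a log2 difference of -0.96 (SE 0.22). That difference passed DESeq2's test (adjusted p = 0.0058) and not edgeR's (adjusted p = 0.234). Over the libraries left out in turn it stayed between -1.09 and -0.78. From young PBS, old rMETRNL differed by 0.15 (interval -0.19 to 0.48).

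Of the contractile genes, Acta2 encodes smooth muscle alpha-actin, the defining protein of the myofibroblast, also abundant in vessel walls. Acta2 was at 80.2, 73.5 and 87.5 CPM in young PBS, at 58.7, 128 and 37.2 CPM in old PBS, and at 63.2, 89.9 and 83.3 CPM in old rMETRNL. Old PBS held both the highest and the lowest library of all 9. The log2 difference of old PBS from young PBS was -0.11 (SE 0.39; 95% interval -0.997 to 0.78), and it changed sign with the library left out, from -0.75 without old PBS 3 to 0.22 without old PBS 4. Old rMETRNL and young PBS differed by -0.03 (interval -0.34 to 0.28).

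Tagln, which encodes transgelin (SM22), an actin-binding protein of smooth muscle, was near the floor. It had 7, 2 and 11 counts in young PBS, 8, 12 and 13 in old PBS, and 20, 6 and 6 in old rMETRNL. One library, young PBS 2, was under the floor of 3 counts, and the groups overlapped. The opposite-strand gene Gm48529, which shares most of the overlap, had 4 to 17 counts. Tagln passed the filter on low counts in 2 of the 3 comparisons, with 0.71 (log2, SE 0.63) in old PBS against young PBS, and could not be tested between old rMETRNL and young PBS. At these counts no difference was detectable, and Tagln is left out of the medians below.

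**Figure D2:**
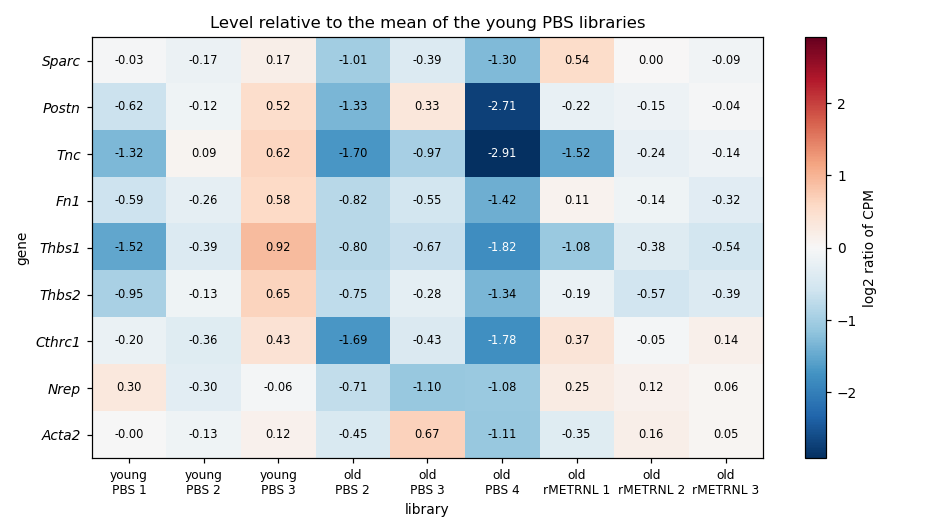
Log2 ratio of each library's CPM to the mean of the young PBS libraries, for 9 genes (rows) in 9 libraries (columns), blue below and red above that mean. Old PBS 4 is the bluest column, with Postn at -2.71 and Tnc at -2.91, and old PBS 3 is red for Postn (0.33) and Acta2 (0.67).

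Old PBS against young PBS asks how age alters the injured muscle. All 9 genes other than Tagln had a lower fitted level in old PBS, with a median log2 difference of -0.89, where all 15560 genes tested had a median of 0.01. None of the 10 passed edgeR's adjusted threshold, which 0.0643% of all genes passed. At an unadjusted p under 0.05 there were 5 of 10 (Sparc, Tnc, Fn1, Cthrc1 and Nrep), against 5.91% of all genes. DESeq2's adjusted p passed for Nrep alone, against 1.42% of the genes it tested. Sparc, Cthrc1 and Nrep were the 3 genes with old PBS wholly below young PBS, which 5.25% of all genes were. These 10 genes were chosen with results from the same old PBS libraries known, so the counts describe them and are no independent evidence of direction. Without young PBS 3 the median was -0.47, and without old PBS 3 it was -1.15, where 401 genes passed in all.

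Old rMETRNL against old PBS is the comparison whose values were known when the genes were chosen, and its fits are given as a description. The log2 differences were 1.02 (SE 0.32) for Sparc, 1.31 (SE 0.35) for Cthrc1, 1.10 (SE 0.19) for Nrep and 1.14 (SE 0.48) for Tnc. Fn1 had 0.78 (SE 0.27), Postn 0.59 (SE 0.61), Thbs1 0.37 (SE 0.30) and Thbs2 0.35 (SE 0.26). Acta2, at 0.07 (SE 0.39), and Tagln, at -0.16 (SE 0.62), were the smallest. Sparc, Fn1, Cthrc1 and Nrep were the 4 genes with every old rMETRNL library above every old PBS library, and 6.99% of all genes showed that order. By edgeR's adjusted threshold 0 of 10 passed (0.108% of all genes), at an unadjusted p under 0.05 there were 5 of 10 (8.07%), and DESeq2 called 3 (1.78%). Counts of calls in this comparison come from the values known at the choice, so they describe the genes and are no evidence of a difference. Without old PBS 3 edgeR called 6 of the 10 genes, and 1560 genes in all, and Postn stood at 1.73, Thbs2 at 0.64 and Thbs1 at 0.59. Without old PBS 4 edgeR called 0 of the 10 genes, Postn stood at 0.13, Thbs2 at 0.10 and Thbs1 at 0.08, and Tnc at 0.76.

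Old rMETRNL against young PBS is the comparison that does not use the old PBS libraries. None of the 9 genes tested passed edgeR's adjusted threshold (0% of 15396 genes), none had an unadjusted p under 0.05 (2.41% of all genes) and DESeq2 called none. In all 9 genes the groups overlapped. They did not overlap in 6.9% of all genes, a share so small that 9 overlapping genes are not set apart by it. Fitted differences were below 0 for 6 genes and above 0 for Sparc, Cthrc1 and Nrep, with a median of -0.10 on the log2 scale. A p that misses the threshold does not show equal levels, and the intervals set what can be said. For Nrep and Acta2 the interval stayed within -0.34 and 0.48, while for Thbs1 it reached -1.60 and for Tnc -1.42. Because old rMETRNL against old PBS and old PBS against young PBS share the old PBS libraries, their opposite signs are not separate observations.

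**Figure D3:**
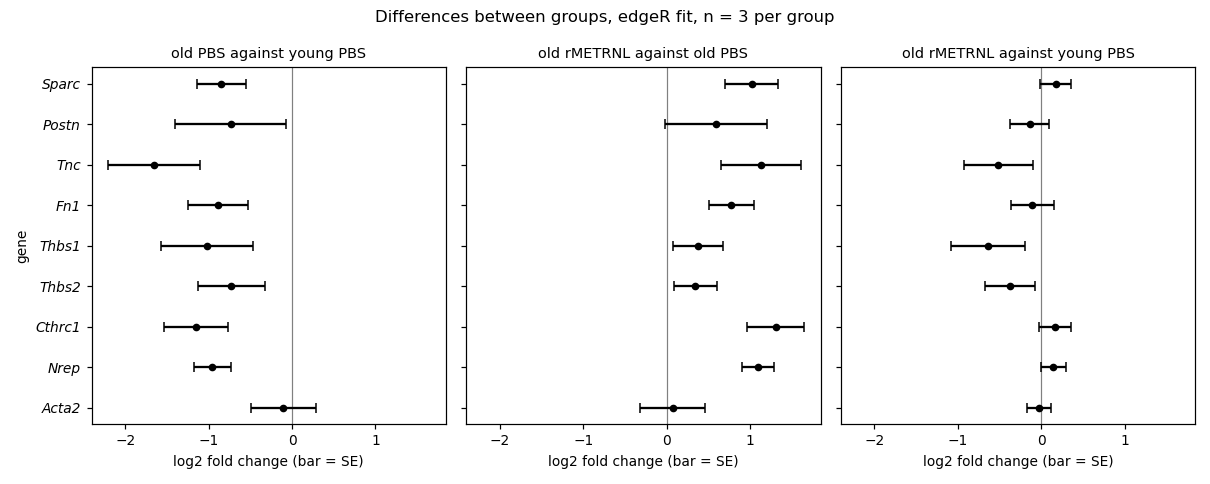
Log2 fold change of 9 genes (points) with SE (bars) in each of the 3 comparisons, from edgeR fits of 6 libraries (n = 3 per group). Points lie left of 0 in old PBS against young PBS and right of 0 in old rMETRNL against old PBS, and lie between -0.64 and 0.17 in old rMETRNL against young PBS.

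Single libraries weighed heavily. Of the 9 genes other than Tagln, 8 were lowest in old PBS 4, and Nrep was lowest in old PBS 3. Young PBS 3 was the highest library for 6 of them (Postn, Tnc, Fn1, Thbs1, Thbs2 and Cthrc1). The highest library was young PBS 1 for Nrep, old rMETRNL 1 for Sparc and old PBS 3 for Acta2. Leaving out old PBS 3 took the difference of old PBS from young PBS further below 0 in 8 of the 9 genes and nearer to 0 in Nrep.

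**Figure D4:**
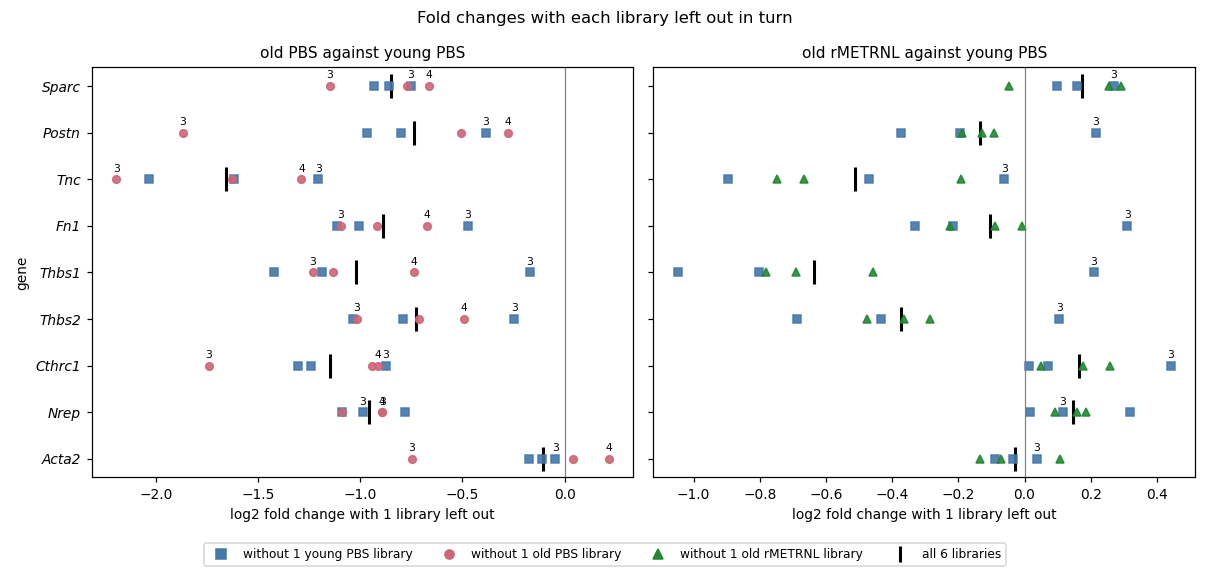
Log2 fold change of 9 genes with each library left out in turn, for old PBS against young PBS (left) and old rMETRNL against young PBS (right). Symbols show the group of the library left out, numbers mark old PBS 3, old PBS 4 and young PBS 3, and black bars show the fit with all 6 libraries. Nrep has the narrowest spread on the left, from -1.09 to -0.78, and Acta2 crosses 0.

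Other genes of the activated fibroblast, from a list of 23 markers without the 10 genes, were counted next. In old PBS against young PBS 21 of 23 had a lower fitted level (median log2 difference -0.46), against 47.9% of all genes. By edgeR's adjusted threshold 0 passed (0.0643% of all genes), and 7 had an unadjusted p under 0.05 (5.91%). DESeq2 called 3, against 1.42% of the genes it tested. The list was chosen with earlier results of these data known, so these counts are a description. The lowest was Col12a1, a collagen chain of tendon and fascia, at -2.64 (SE 0.73; edgeR, adjusted p = 0.405), and the highest Runx1, a transcription factor, at 0.06 (SE 0.45). Without Tpm1, a tropomyosin that muscle fibres also express, the summed level was 11993 to 18577 CPM in young PBS, 4106 to 10104 CPM in old PBS and 11104 to 17735 CPM in old rMETRNL. Against young PBS, old rMETRNL had 10 of the 23 higher and 13 lower (median -0.11), and 0 passed.

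Markers of the cell types that could carry these genes were counted in the same way. For fibro-adipogenic cells, the resident fibroblasts of muscle, 6 of 10 markers had a lower fitted level in old PBS muscle than in young PBS and 4 a higher one (median -0.24, 0 passed edgeR's adjusted threshold). Their summed level of 1918 to 3233 CPM in old PBS spanned that of young PBS, 2161 to 2849 CPM. Without Gsn, the highest of them, it was 1404 to 1902 CPM in old PBS and 1569 to 1945 CPM in young PBS, and the ranges overlapped. Set against young PBS, all 10 had a higher fitted level in old rMETRNL (median 0.22), with 2 at an unadjusted p under 0.05 and 0 passing the adjusted threshold. For tendon cells 6 of 8 were lower in old PBS (median -1.06), 0 passed edgeR's test and DESeq2 called 3. Kera, a tendon and cornea proteoglycan, was lowest, at -2.15 (SE 0.54; edgeR, adjusted p = 0.304). The tendon list summed to 225 to 289 CPM in old PBS, 319 to 658 CPM in young PBS and 354 to 443 CPM in old rMETRNL, and without Thbs4, the highest of them, to 105 to 150.2, 140 to 255 and 121 to 165 CPM. Macrophage markers were lower in old PBS in 8 of 8 (median -0.37) and pericyte markers in 7 of 8 (median -0.35), with 0 passing. Contractile smooth muscle markers, of which 6 of 9 were tested, were split 3 to 3 (median 0.02), and their sum without Synpo2 was 156 to 235 CPM in old PBS and 195 to 212 CPM in young PBS. The part of any of these cell types in the results was not tested.

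Set against the mean of the fibro-adipogenic markers of the same library, a comparison chosen after the data were seen, old PBS kept the lowest mean of the 3 groups for Sparc, Cthrc1 and Nrep, while young PBS and not old rMETRNL had the highest. The log2 ratio of Nrep to these markers was 0.84 ± 0.25 (SD, n = 3) in young PBS, 0.09 ± 0.37 in old PBS and 0.76 ± 0.15 in old rMETRNL. For Cthrc1 it was -2.11 ± 0.56, -3.16 ± 0.92 and -2.15 ± 0.09, and for Sparc 3.62 ± 0.31, 2.93 ± 0.67 and 3.53 ± 0.12. For Nrep the old PBS libraries stayed below all others, whereas for Sparc and Cthrc1 old PBS 3 lay in their range. For Acta2 the ratio was -0.88 ± 0.26, -0.98 ± 1.11 and -1.16 ± 0.50. Thbs1, with -1.69, -2.26 and -2.27 in young PBS, old PBS and old rMETRNL, and Thbs2, with -0.29, -0.74 and -0.77, also had no higher mean in old rMETRNL than in old PBS. Old PBS had the lowest mean of Postn (2.85, 1.89 and 2.55), Tnc (-1.59, -3.04 and -2.26) and Fn1 (2.63, 1.99 and 2.37).

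The pathways around these genes had medians nearer to that of all genes. Of 26 other matricellular genes tested, in old PBS against young PBS 12 had a higher and 14 a lower fitted level (median -0.09, 0 passed edgeR's adjusted threshold, 8 at an unadjusted p under 0.05, 1 by DESeq2). Tnn, tenascin-N, was lowest, at -2.53 (SE 0.90; edgeR, adjusted p = 0.695), and Spock3, a proteoglycan, highest, at 1.38 (SE 0.81). Of 21 receptors, integrins among them, 8 were higher and 13 lower (median -0.13, 0 passed). Itga8, the integrin subunit that pairs with beta-1 to bind fibronectin and tenascin-C, had -1.24 (SE 0.29; edgeR, adjusted p = 0.245). Ptprz1, a receptor phosphatase of glia that binds tenascins, had 2.25 (SE 0.49; edgeR, adjusted p = 0.198, DESeq2 adjusted p = 0.00274). Ptprz1 was at 5.79, 2.93 and 3.77 CPM in old PBS 2, 3 and 4, the libraries with raised brain markers. Spock3 was at 1.48, 0.22 and 1.82 CPM there. The part of brain RNA in these levels was not tested.

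Of 18 genes of TGF-beta signalling, the pathway that drives the myofibroblast programme, 7 were higher and 11 lower in old PBS (median -0.05, 0 passed). Ltbp2, a latent TGF-beta binding protein, was lowest, at -0.71 (SE 0.73), and Skil, an inhibitor that the pathway itself induces, highest, at 0.14 (SE 0.20). Of 15 genes of the SRF and YAP control of contractile genes, 6 were higher and 9 lower (median -0.02, 0 passed). Ankrd1, a target of YAP that muscle also expresses, had 278 CPM in old PBS 3 and 72.4 to 104 CPM in the other 8 libraries. Between old rMETRNL and young PBS 0 genes of these 4 pathway lists passed edgeR's adjusted threshold. The counts of higher and lower genes there were 16 and 9 for matricellular genes, 9 and 12 for receptors, 5 and 13 for TGF-beta signalling and 11 and 4 for the SRF and YAP list.

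For the 9 genes other than Tagln, which was under the minimum level of 1 CPM, the most similar genes were found by Pearson r of log2 CPM over the 9 libraries among 14169 genes, as a description, since the libraries share their depth and composition. Sparc was most like Fstl1 (r = 0.991), a secreted glycoprotein of the same family, followed by the collagen chaperone Serpinh1. Cthrc1 was most like C1qtnf6 (r = 0.990), followed by Rcn1 and Pdia3, proteins of the endoplasmic reticulum. Postn was most like Itgb2 (r = 0.989), the integrin subunit of leukocytes, and Thbs2 most like Itga11 (r = 0.975), a collagen receptor of fibroblasts. Tnc was most like Gas2l3 (r = 0.991) and Fn1 most like Robo1 (r = 0.980). Nrep was most like Tlcd2 (r = 0.983), followed by Ip6k3, a kinase of skeletal muscle, and Acta2 most like Bhlhb9 (r = 0.988). For Thbs1 the closest gene was Ptprv (r = 0.939). Among the 36 pairs of these 9 genes, Sparc and Cthrc1 were the most alike (r = 0.964) and Nrep and Acta2 the least (r = 0.212).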

How the data were processed

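RNA of injured tibialis anterior muscle was sequenced in 9 libraries, 3 per group. The NEBNext Ultra kit was used, with paired-end reads. The authors deposited raw counts, whole numbers of reads per Ensembl gene with replicates apart and no normalization. The submitters' processing notes name STAR, featureCounts and mm9, without versions or roles, and the strand setting is not given in the sources used here. Of 54532 gene IDs, 54495 matched the GRCm38 annotation (GENCODE), the source of names, coordinates and exon lengths used here. Library totals were 16238700 to 22522560 counts, and 3 counts (the floor, for counting error only) were 0.131 to 0.202 CPM.

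Groups were taken from the labels. Each pair of groups was compared on its 6 libraries with edgeR 4.0.16 in R 4.3.3 (filterByExpr, TMM, glmQLFit and glmQLFTest, Benjamini-Hochberg over all genes tested, threshold 0.05). The SE is the absolute log2 fold change over the square root of F. The study names DESeq2, and DESeq2 1.42.0 with its defaults was an alternative. Levels are CPM with TMM factors of all 9 libraries, correlations used a prior count of 2, and the most alike genes needed a mean of at least 1 CPM. Nothing in the labels says that replicates came from separate animals, so p-values measure the spread between these samples. The fit was also run on simulated counts modelled on the old rMETRNL and young PBS libraries. That run did not cover the spread between the old PBS libraries.

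The 10 genes and the lists were chosen with earlier results of these data known. Genes named from a list are those with the highest or lowest log2 fold change in old PBS or old rMETRNL against young PBS, or past the threshold. Of other lists, counts and sums are given, and of platelet markers only here (40.2 to 54.5 CPM in sum). Endothelial and nerve lists are given among the closing observations. The other settings tried were size factors of DESeq2, no filter, at least 10 counts in every library, all 9 libraries in one fit, the replicate number as a block and each library left out. No protein sequence was used here.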

Additional observations from a re-analysis of the deposited data

How the results depend on the processing

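Of 119 values for old PBS against young PBS under the alternatives, 109 kept direction and side of the threshold, 7 passed it anew and 3 reversed. The counts were 98, 14 and 7 of 119 for old rMETRNL against old PBS, and 99, 2 and 7 of 108 for old rMETRNL against young PBS. None of the 10 genes passed in any of the main comparisons. Calls in old rMETRNL against old PBS only describe values known when the genes were chosen. In old PBS against young PBS, 3 passed with no filter (Tnc, Cthrc1 and Nrep, of 354 genes in all), 1 with DESeq2 (Nrep, of 265), 1 with the replicate block (Tnc, of 11) and 0 to 2 with a library left out. Their median ran from -1.15 to -0.47, and Acta2 from -0.75 to 0.22, with a library left out. In old rMETRNL against old PBS, 4 passed with no filter (of 740 genes in all), 3 with DESeq2 (of 354), 1 with all 9 libraries in one fit (Nrep, of 71) and 0 to 6 with a library left out (6 of 1560 without old PBS 3). The median was 0.56 to 1.03, Postn 0.13 to 1.73, Thbs1 0.08 to 0.59, Thbs2 0.10 to 0.64, Acta2 -0.26 to 0.71 and Tagln -1.03 to 0.17 with a library left out. In old rMETRNL against young PBS, 2 passed with no filter (Tnc and Thbs1, of 132 genes in all, against 0 genes in the main comparison), and with a library left out the median ran from -0.33 to 0.21, Sparc from -0.046 to 0.29, Postn from -0.37 to 0.21, Tnc from -0.90 to -0.06, Fn1 from -0.33 to 0.31, Thbs1 from -1.05 to 0.21, Thbs2 from -0.69 to 0.11 and Acta2 from -0.13 to 0.11. Correlations of same-numbered libraries ran from -0.32 to 0.41. They gave no clear sign that the numbers in the labels pair the libraries, but so few values cannot exclude it. With the replicate block, Acta2 was 0.12 in old PBS against young PBS and -0.011 in old rMETRNL against old PBS, where the median was 0.45. In both comparisons with old PBS only the numbers 2 and 3 occur in both groups. Old PBS 4 and the libraries numbered 1 therefore do not inform the blocked differences, that of Tnc included. Beyond this, the cause of these shifts was not tested. Tagln had 2 to 20 counts, and 67.9% of its exon bases are shared with genes of the opposite strand. The part of depth and of the shared bases in its low counts was not tested.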

Other observations

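Markers outside the fibroblast lineage gave these values in old PBS against young PBS. Endothelial markers were lower in 7 of 8 (median log2 difference -0.30, 0 passed edgeR's adjusted threshold), and summed to 296 to 410 CPM in old PBS, 400.4 to 473 CPM in young PBS and 399 to 521 CPM in old rMETRNL. Nerve and Schwann cell markers were higher in 6 of 8 (median 0.91, 0 passed by edgeR, 3 by DESeq2), and summed to 118 to 271 CPM in old PBS, 84.9 to 106 CPM in young PBS and 92.4 to 123 CPM in old rMETRNL. The lowest nerve sum of old PBS was in old PBS 3, the library in which Postn and Acta2 were high. Muscle markers were higher in 5 of 10 and lower in 5 (median -0.03). The part of these RNAs in the levels of the 10 genes was not tested.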
